A study of Homo sapiens with 4 samples.

Results

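The 10 genes described here, YAP1, WWTR1, TEAD1, TEAD2, TEAD3, TEAD4, LATS1, LATS2, AMOT and NF2, form the core of the Hippo pathway from its membrane inputs to its transcription factors. They were chosen by name among the 62218 genes to which the counted transcripts belong, and they hold 79 of the 242542 transcripts that could be matched to a gene. H1 is an established human embryonic stem cell (hESC) line, wild type in both groups, and 2 Nanopore cDNA libraries were made from each of its states. The primed hESCs were kept in mTeSR on Matrigel at normal oxygen. The naïve hESCs were derived from the H1 primed cells and grown at low oxygen in the FINE medium. That medium holds LIF, activin A, bFGF, the kinase inhibitors dasatinib and AZD5438, the RAF inhibitor SB590885, the MEK inhibitor PD0325901 and the ROCK inhibitor Y-27632. State, medium, oxygen and passaging method differ together between the groups, so their effects cannot be told apart. Both states come from a single line, and the labels do not say whether replicates were separate cultures, so the p-values measure the spread between these libraries, which may be technical.

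The Hippo pathway restrains growth by keeping YAP1 and its paralog TAZ, the product of WWTR1, out of the nucleus. In the active pathway the kinases LATS1 and LATS2 phosphorylate YAP1 and TAZ, which are then bound by 14-3-3 proteins in the cytoplasm or degraded. Unphosphorylated YAP1 and TAZ enter the nucleus and bind the TEAD factors TEAD1 to TEAD4, which carry the DNA-binding domain of the complex. In the early embryo this switch separates the outer trophectoderm, where TEAD4 is active, from the inner cell mass, where AMOT and NF2 keep the LATS kinases on. The level of an mRNA says nothing about the phosphorylation or the place of its protein.

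The serine codons that LATS kinases act on are shown because counts over different stretches of YAP1 and WWTR1 gave different values for the states. The annotated coding sequences held the LATS phosphorylation consensus 5 times in the 504 codons of YAP1-201 and 4 times in the 400 codons of WWTR1-201. The 27 bases around the sites best known for 14-3-3 binding (codon 127 of YAP1, codon 89 of WWTR1) and for degradation (codon 397 of YAP1, codon 311 of WWTR1) are printed from the reference transcripts of GRCh38, 5′ to 3′ on the coding strand, with the serine codon in capitals. They lie at chr11:102114186-102114212 (plus strand, exon 2), chr3:149657031-149657057 (minus strand, exon 2), chr11:102227479-102227505 (plus strand, exon 8) and chr3:149526089-149526115 (minus strand, exon 6).
YAP1 codon 127: catgttcgagctcatTCCtctccagct
WWTR1 codon 89: catgtccgctcgcacTCGtcgcccgcg
YAP1 codon 397: cactctcgagatgagAGTacagacagt
WWTR1 codon 311: cattcgagggagcagAGCactgacagt

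Each library held between 129276054 and 161548901 counts over all transcripts. A count is an alignment that overlaps a transcript anywhere between its start and end, introns included and strand ignored, and it counts for every transcript that it overlaps. A gene was given the count of its transcript with the largest mean, and levels are CPM (counts scaled to a common library total) of the sum over genes, scaled by the TMM method. Where a count is 0, the limit taken is 3 counts, or 0.0978 to 0.130 CPM per library, which covers counting error only. In bulk libraries, fewer cells of a type and less RNA per cell cannot be told apart. The naïve markers fixed for this work (8 genes, DPPA5 and DPPA3 among them) summed to 1227 and 1043 CPM in the naïve libraries against 76.7 and 78.3 CPM in the primed libraries. KLF17 alone gave 70.7 and 72.9 CPM of the primed sums. Another annotated gene inside KLF17, ENSG00000233514, had counts equal to 99.2% of its own. The primed markers (8 genes, ZIC2 and SFRP2 among them) summed to 145.6 and 141.0 CPM in the naïve against 818.9 and 722.8 CPM in the primed libraries, with SFRP2 and THY1 at 0 in the naïve state. CD24 alone gave 143 and 137 CPM of the naïve sums.

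Markers of other lineages moved with the state as well. The 12 trophoblast markers summed to 2219 and 2546 CPM in the naïve libraries against 5.77 and 5.02 CPM in the primed libraries. Most of the naïve sums was CGA (1548.5 and 1862.3 CPM) and CGB5 (405 and 400 CPM). Of the 11 trophoblast markers that could be tested, 10 were lower in primed hESCs and none was higher, KRT7 did not pass the test, and VGLL1 and XAGE2 had no primed count. CDX2, the trophectoderm factor, had 3 and 4 naïve counts and 2 in each primed library. The 5 amnion markers summed to 24.6 and 23.0 CPM against 7.13 and 6.03 CPM, and the 7 mesenchyme and fibroblast markers to 4.81 and 4.70 CPM against 57.8 and 60.1 CPM in the primed libraries. Most of that primed sum was COL1A1 (32.2 and 38.3 CPM) and COL1A2 (24.0 and 19.7 CPM). TWIST1 was lower in primed hESCs at a log2 fold change of -3.08, COL3A1 did not pass, and DCN, LUM and PRRX1 were not tested. Several Hippo pathway genes are used in these lineages. The part of the marker genes' cell types in the results below was not tested.

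Of the 10 genes, 6 were lower in primed than in naïve hESCs (TEAD1, TEAD3, TEAD4, LATS2, AMOT and NF2), LATS1 was higher, and YAP1, WWTR1 and TEAD2 did not pass the test. A call needed an adjusted p under 0.05 in edgeR's quasi-likelihood test, with the Benjamini-Hochberg adjustment taken over all 27633 genes tested. By this rule 70.0% of all genes differed, 37.4% being higher and 32.6% lower in primed hESCs, so that a call by itself is common here. The median log2 fold change, primed minus naïve, was -0.72 over the 10 genes and 0.08 over all genes tested. Of the 10 genes, 4 were called with a log2 fold change beyond 1 (TEAD3, LATS2, AMOT and NF2), as were 47.1% of all genes.

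**Figure D1:**
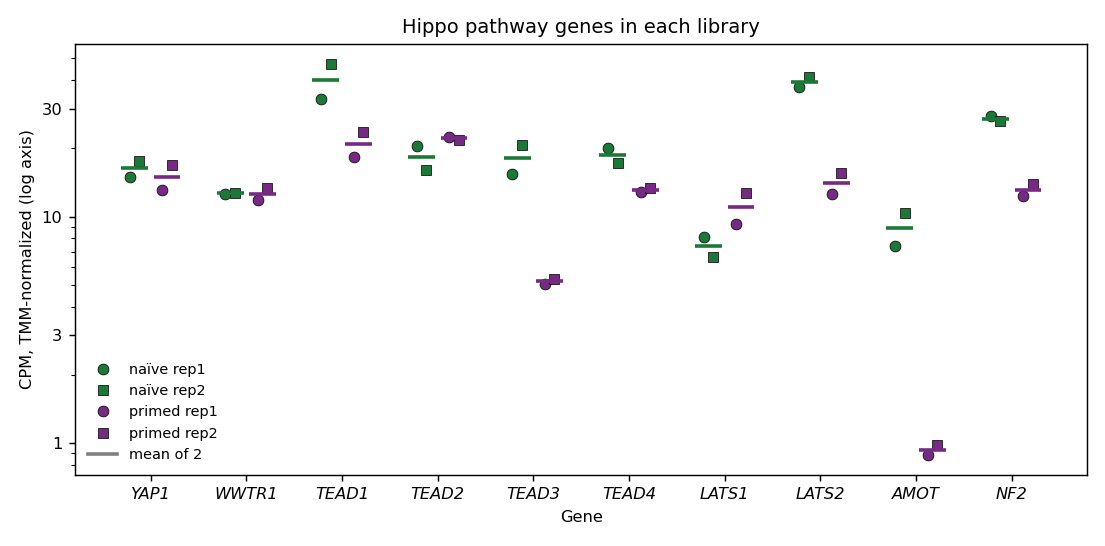
Level of each of the 10 genes in the 4 libraries, in CPM with TMM normalization on a log axis. Circles are rep1, squares are rep2, and bars are the mean of the 2 replicates of a state. The naïve and primed points overlap for YAP1 and WWTR1 and are furthest apart for AMOT, which is at 7.41 and 10.4 CPM in the naïve against 0.882 and 0.978 CPM in the primed libraries.

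YAP1 (ENSG00000137693), the better studied of the coactivators, lies on chromosome 11 of GRCh38 from 102110447 to 102233424 on the plus strand. Its transcript YAP1-201 had 346 and 450 counts in the naïve libraries against 386 and 516 in the primed libraries, which is 15.0 and 17.6 CPM against 13.1 and 16.8 CPM. The ranges of the states overlapped. The log2 fold change was -0.12 ± 0.16 (SE, n = 2 per state), with a 95% interval of -0.46 to 0.21 and an adjusted p of 0.504 in edgeR. The processed pseudogenes YAP1P1 and YAP1P2, which could share reads with it, had no count, and YAP1P3 had 1 count in all.

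WWTR1 (ENSG00000018408) encodes TAZ and lies on chromosome 3 from 149517235 to 149736714 on the minus strand. WWTR1-203 had 290 and 326 naïve counts and 347 and 410 primed counts, which is 12.6 and 12.8 CPM against 11.8 and 13.4 CPM. The states overlapped here too. The log2 fold change was -0.01 ± 0.16 (SE, n = 2 per state), with a 95% interval of -0.34 to 0.32 and an adjusted p of 0.957 in edgeR. The ratio of WWTR1 to YAP1 counts within a library, which no scaling alters, was 0.838 and 0.724 in the naïve libraries against 0.899 and 0.795 in the primed libraries. These ratios overlapped between the states.

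The share of the WWTR1 counts at its first exons differed between the states. WWTR1-211 is an annotated transcript of 877 bases at chr3:149656891-149657767, around exons 1 and 2 of WWTR1-201, and it covers the codon for serine 89 printed above. Over this stretch there were 115 and 119 counts in the naïve against 58 and 42 counts in the primed libraries. Their share of the WWTR1-203 counts was 39.7% (95% Wilson interval 34.2% to 45.4%) in naïve rep1 and 36.5% (31.5% to 41.9%) in naïve rep2. In primed rep1 it was 16.7% (13.2% to 21.0%) and in primed rep2 10.2% (7.67% to 13.6%), below both naïve shares. These intervals cover counting error only, and replicates spread more widely than that over all genes (chi-square per degree of freedom 8.74 naïve and 5.53 primed). The alignments over WWTR1 that missed this stretch numbered 175 and 207 in the naïve against 289 and 368 in the primed libraries, a mean of 7.84 CPM against 10.9 CPM. The antisense gene WWTR1-AS1 overlaps the stretch, and its transcript inside WWTR1-203 had 116 and 106 naïve counts and 56 and 48 primed counts. Since strand was ignored, alignments of WWTR1 and of WWTR1-AS1 cannot be told apart there.

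The test of isoform usage sets each isoform against the others of its gene. Of the 79 isoforms of the 10 genes, 4 had an adjusted p under 0.05 in edgeR, all 4 among the 12 of WWTR1. Over all 159577 isoforms tested the share was 4.27%, so a count of 4 of 79 is near that share. The usage of WWTR1-211 was 11.2% and 11.9% of WWTR1 in the naïve against 7.52% and 5.39% in the primed libraries, a change in isoform fraction (dIF) of -0.051 with an adjusted p of 4.5e-04 in edgeR. WWTR1-202 and WWTR1-208, which overlap WWTR1-211, had dIF values of -0.038 and -0.035. An alignment there can count for each of these isoforms, so they are not separate results. WWTR1-207, which begins upstream of the other WWTR1 isoforms, had 11 and 12 naïve and 23 and 35 primed counts and a dIF of 0.006. None of the 4 reached the dIF of 0.1 that a call needed, so 0 of the 79 isoforms of the 10 genes were called, against 0.556% of all isoforms. Without the dIF threshold the 4 WWTR1 isoforms passed in edgeR, while the other 9 genes had no isoform at an adjusted p under 0.05, and without primed rep2 no WWTR1 isoform passed.

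Counts over single stretches of the coactivators gave values other than those over the whole genes. At the other end of WWTR1, the transcript WWTR1-210 (exons 4 to 6, where codon 311 lies) overlaps no other annotated gene and had 130 and 112 naïve counts and 87 and 88 primed counts. A gene was also counted on the transcript with the largest mean count among those free of other genes. WWTR1 was then lower in primed hESCs, with a log2 fold change of -0.77 and an adjusted p of 0.0033 in edgeR. By that count 69.0% of all genes differed. WWTR1-207 is also free of other genes and went the other way. It had 11 and 12 naïve and 23 and 35 primed counts, a log2 ratio of 1.02 in mean CPM. In the middle of YAP1, YAP1-205, which covers exons 3 and 4 and no other gene, had 94 and 122 naïve against 163 and 192 primed counts, with a log2 fold change of 0.43 that did not pass (adjusted p = 0.067 in edgeR).

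YAP1-206, at exons 8 and 9 with the codon for serine 397, had 34 and 61 naïve and 76 and 91 primed counts, or 9.83% and 13.6% against 19.7% and 17.6% of the YAP1-201 counts. An antisense lncRNA gene, ENSG00000254422, lies in that stretch with 24 and 52 naïve and 74 and 68 primed counts. On the transcript with the most counts per base of span, a choice made after seeing the data by which 66.2% of all genes were called, the log2 fold change was 0.58 for YAP1 (adjusted p = 0.077) and -1.47 for WWTR1 (adjusted p = 2.1e-05) in edgeR. The counts over the whole gene and over its parts thus gave values of different sign for YAP1, none of which passed, and different calls for WWTR1.

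**Figure D2:**
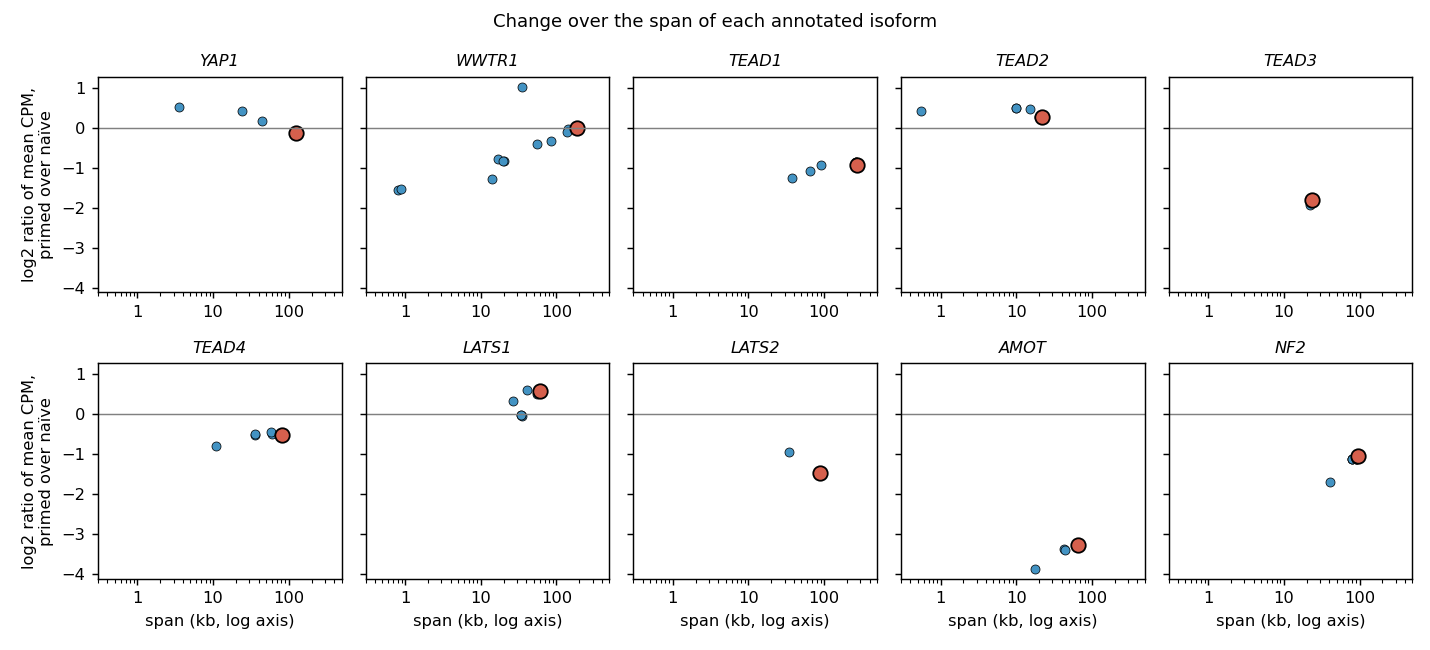
log2 ratio of the mean primed to the mean naïve CPM over the span of each annotated isoform of the 10 genes, against the length of the span in kb on a log axis. Each point is an isoform and the large point is the isoform taken for the gene. Spans of WWTR1 run from -1.55 to 1.02 and those of YAP1 lie on both sides of 0, while all spans of TEAD1, TEAD3, TEAD4, LATS2, AMOT and NF2 lie below 0.

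Among the TEAD factors, 3 of 4 were lower in primed hESCs. TEAD3 (ENSG00000007866, chromosome 6, 35473597 to 35497079, minus strand), a TEAD gene used in the placenta, showed the largest difference of the 4. It had 355 and 529 counts in the naïve against 149 and 162 in the primed libraries, or 15.4 and 20.7 CPM against 5.06 and 5.28 CPM. Both naïve values lay above both primed values, at a log2 fold change of -1.80 ± 0.18 (SE, n = 2 per state) and an adjusted p of 6.2e-12 in edgeR. TEAD3 overlaps no other annotated gene.

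TEAD1 (ENSG00000187079, chromosome 11, 12674421 to 12944737, plus strand) had 766 and 1210 naïve counts and 541 and 726 primed counts. In CPM this was 33.2 and 47.4 against 18.4 and 23.7, with no overlap of the states and a wide spread between the naïve replicates. The log2 fold change was -0.94 ± 0.16 (SE, n = 2 per state), with an adjusted p of 2.7e-06 in edgeR. TEAD4 (ENSG00000197905, chromosome 12, 2959330 to 3040676, plus strand), the TEAD factor of the trophectoderm, had 463 and 439 naïve counts and 378 and 409 primed counts, or 20.1 and 17.2 CPM against 12.8 and 13.3 CPM. The states did not overlap in CPM, and the log2 fold change was -0.51 ± 0.16 (SE, n = 2 per state, adjusted p = 0.0046 in edgeR). Its call was lost without primed rep1 (log2 fold change -0.32, adjusted p = 0.164 in edgeR) and without primed rep2 (-0.37, adjusted p = 0.103).

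TEAD2 (ENSG00000074219, chromosome 19, 49340595 to 49362457, minus strand) was the TEAD gene with a higher mean in primed hESCs. It had 474 and 411 naïve counts and 663 and 667 primed counts, or 20.5 and 16.1 CPM against 22.5 and 21.7 CPM. The states did not overlap, but the log2 fold change of 0.27 ± 0.16 (SE, n = 2 per state) had a 95% interval of -0.04 to 0.59 and an adjusted p of 0.118 in edgeR. It was 0.048 without naïve rep2, and TEAD2 was called higher without primed rep2 (0.46, adjusted p = 0.039 in edgeR) and at a minimum of 50 counts (0.37, adjusted p = 0.033). Most of its count lies where TEAD2 overlaps the antisense gene CD37, a leukocyte tetraspanin. A CD37 transcript inside the TEAD2 span had 428 and 361 naïve and 589 and 561 primed counts, equal to 87.5% of the TEAD2 count over all libraries. On TEAD2-205, a transcript of 553 bases that overlaps no other gene, there were 155 and 158 naïve and 292 and 224 primed counts, and TEAD2 was then higher in primed hESCs (log2 fold change 0.43, adjusted p = 0.046 in edgeR).

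The make-up of the TEAD genes thus differed between the states. Per kb of exonic length, the 4 genes summed to 29.8 and 29.4 CPM per kb in the naïve and to 21.5 and 22.1 CPM per kb in the primed libraries. TEAD2 made up 31.6% and 25.1% of that sum in the naïve against 48.1% and 45.3% in the primed libraries, while TEAD3 made up 17.3% and 23.6% against 7.88% and 8.01%. The shares of TEAD2 and of TEAD3 did not overlap between the states, and shares within a library do not depend on the scaling between libraries. TEAD1 took 11.8% and 17.1% against 9.07% and 11.4%, and its shares did not overlap by a small margin. TEAD4 held 39.3% and 34.2% against 34.9% and 35.3%, with overlap. The size of each share depends on the division by exonic length. In CPM without it, TEAD1 was the highest of the 4 genes in both naïve libraries, at 33.2 and 47.4 CPM. With 2 libraries per state an exact permutation test of such a share cannot go below p = 0.333, so no test is given.

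**Figure D3:**
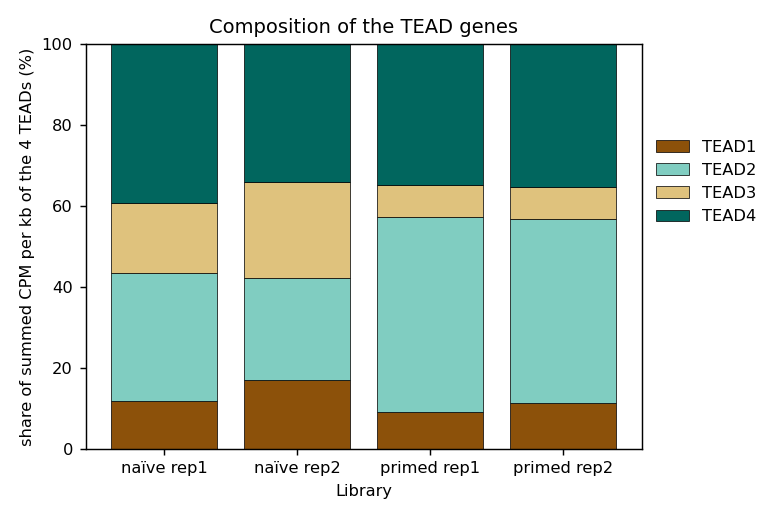
Share of TEAD1, TEAD2, TEAD3 and TEAD4 in the summed CPM per kb of the 4 genes, in percent, as 1 stacked bar for each library. The TEAD2 part grows from 31.6% and 25.1% in the naïve to 48.1% and 45.3% in the primed libraries, and the TEAD3 part is 7.88% and 8.01% in the primed ones. The size of each part depends on the division by exonic length.

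The LATS kinases differed in opposite directions. LATS2 (ENSG00000150457, chromosome 13, 20973036 to 21061586, minus strand) had 862 and 1053 naïve counts and 372 and 480 primed counts, or 37.3 and 41.2 CPM against 12.6 and 15.6 CPM. The states were far apart, with a log2 fold change of -1.47 ± 0.16 (SE, n = 2 per state) and an adjusted p of 4.1e-11 in edgeR. The antisense gene LATS2-AS1 lies inside LATS2, and its transcript there had counts equal to 16.7% of those of LATS2.

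LATS1 (ENSG00000131023, chromosome 6, 149658153 to 149718105, minus strand) had 188 and 169 naïve counts and 272 and 391 primed counts, or 8.14 and 6.62 CPM against 9.23 and 12.7 CPM. The states did not overlap, though naïve rep1 and primed rep1 were close. The log2 fold change was 0.58 ± 0.19 (SE, n = 2 per state, adjusted p = 0.0056 in edgeR). The call was lost without naïve rep2 (0.37, adjusted p = 0.137 in edgeR) and without primed rep2 (0.49, adjusted p = 0.062), and also with the counts summed over transcripts (0.32, adjusted p = 0.169). The LATS1 call was lost as well on the transcript with the most counts per base of span (0.40, adjusted p = 0.117 in edgeR). With DESeq2 its adjusted p was 0.04996. By counts, the higher primed level lay in the 3′ part of the gene, but no LATS1 isoform passed the test of isoform usage. Alignments that missed LATS1-204, whose span holds exons 1 to 4, numbered 68 and 44 in the naïve against 138 and 226 in the primed libraries, a 2.58-fold difference in mean CPM. Those over LATS1-204 numbered 120 and 125 against 134 and 165, a log2 ratio of -0.02 in mean CPM.

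Within a library, LATS2 had 4.59 and 6.23 times the count of LATS1 in the naïve libraries and 1.37 and 1.23 times in the primed libraries, with no overlap. Per kb of exonic length, LATS1 made up 14.1% and 10.8% of the sum of both kinases in the naïve libraries against 35.5% and 38.0% in the primed libraries. LATS2 had the higher level of the pair in all 4 libraries.

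The membrane-side genes AMOT and NF2 were both lower in primed hESCs, AMOT with the largest difference of the 10 genes. AMOT (ENSG00000126016, chromosome X, 112774503 to 112840831, minus strand) encodes angiomotin, a junction protein that binds YAP1 and, in the inner cells of the embryo, helps to turn LATS on. It had 171 and 266 naïve counts and 26 and 30 primed counts, or 7.41 and 10.4 CPM against 0.882 and 0.978 CPM. The naïve mean was 9.58-fold the primed mean, at a log2 fold change of -3.26 ± 0.25 (SE, n = 2 per state) and an adjusted p of 2.9e-15 in edgeR. NF2 (ENSG00000186575, chromosome 22, 29603556 to 29698598, plus strand) encodes merlin, a membrane scaffold that recruits LATS. It had 639 and 674 naïve counts and 363 and 426 primed counts, or 27.7 and 26.4 CPM against 12.3 and 13.9 CPM. The states did not overlap, with a log2 fold change of -1.04 ± 0.16 (SE, n = 2 per state) and an adjusted p of 1.4e-07 in edgeR.

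The fall of NF2 was unequal along the gene. NF2-204, whose span holds exons 5 to 16 of NF2-202, had 303 and 360 naïve and 126 and 127 primed counts, or 47.4% and 53.4% against 34.7% and 29.8% of the NF2-202 counts. Alignments that missed it numbered 336 and 314 against 237 and 299, a ratio of 0.662 in mean CPM. No NF2 isoform passed the test of isoform usage, the smallest adjusted p among its 15 isoforms being 0.053 in edgeR.

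AMOT has 2 paralogs with the same scaffold role, and the family did not move as one. AMOTL2 had 172 and 234 naïve and 82 and 76 primed counts and was lower in primed hESCs (log2 fold change -1.66 ± 0.21, SE, n = 2 per state, adjusted p = 3.8e-09 in edgeR). AMOTL1 had 90 and 118 naïve and 202 and 165 primed counts and was higher (0.52 ± 0.21, SE, n = 2 per state, adjusted p = 0.026 in edgeR), a call that was lost with DESeq2 (adjusted p = 0.130). Per kb, AMOTL1 made up 14.8% and 13.7% of the family in the naïve libraries against 52.6% and 48.4% in the primed libraries, where AMOT made up 7.99% and 10.4%.

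Compared by CPM per kb of exonic length, TEAD4 had the highest level of the 10 genes in naïve hESCs, at 10.9 ± 1.18 (SD, n = 2), followed by TEAD2 at 8.42 ± 1.44, LATS2 at 7.08 ± 0.497 and TEAD3 at 6.04 ± 1.26 CPM per kb. TEAD2 and LATS2 overlapped in their libraries, as did LATS2 and TEAD3. NF2, TEAD1, YAP1, WWTR1, AMOT and LATS1 followed in that order, with overlap between NF2 and TEAD1 and between AMOT and LATS1. In primed hESCs TEAD2 was highest at 10.2 ± 0.250 (SD, n = 2) and TEAD4 next at 7.65 ± 0.205 CPM per kb, without overlap. YAP1 was the third, at 2.77 ± 0.486 CPM per kb, and YAP1, LATS2, WWTR1, TEAD1 and NF2 could not be ranked apart, since each overlapped the next. AMOT was lowest at 0.122 ± 0.0088 (SD, n = 2) CPM per kb. These levels rest on counts over whole spans, so introns and overlapping genes add to them. The order also depends on the division by exonic length, which ran from 1710 bases for TEAD4 to 9417 bases for TEAD1. In CPM without that division, TEAD1 (40.3) and LATS2 (39.3) were highest in naïve hESCs, with TEAD4 at 18.6. In primed hESCs TEAD2 (22.1) and TEAD1 (21.0) were highest, with TEAD4 at 13.1.

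The direction of some differences depended on how the libraries were scaled. With library size in place of TMM, the all-gene median moved from 0.08 to 0.72 on the log2 scale, and 56.2% of all genes were higher and 16.3% lower in primed hESCs. AMOT, TEAD3, LATS2 and NF2 stayed lower and LATS1 stayed higher under TMM, TMM over protein-coding genes, DESeq2's size factors and library size. TEAD1 lost its call with library size (log2 fold change -0.31, adjusted p = 0.123 in edgeR), TEAD4 turned to 0.13 (adjusted p = 0.458), and YAP1, WWTR1 and TEAD2 were called higher at 0.51, 0.63 and 0.92. These scalings shift all genes by about the same amount, so the distance of a gene from the all-gene median is set by construction to be nearly the same under each. The difference from that median was -3.34 to -3.33 on the log2 scale for AMOT, -0.59 to -0.58 for TEAD4, -0.21 to -0.20 for YAP1 and -0.09 for WWTR1.

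**Figure D4:**
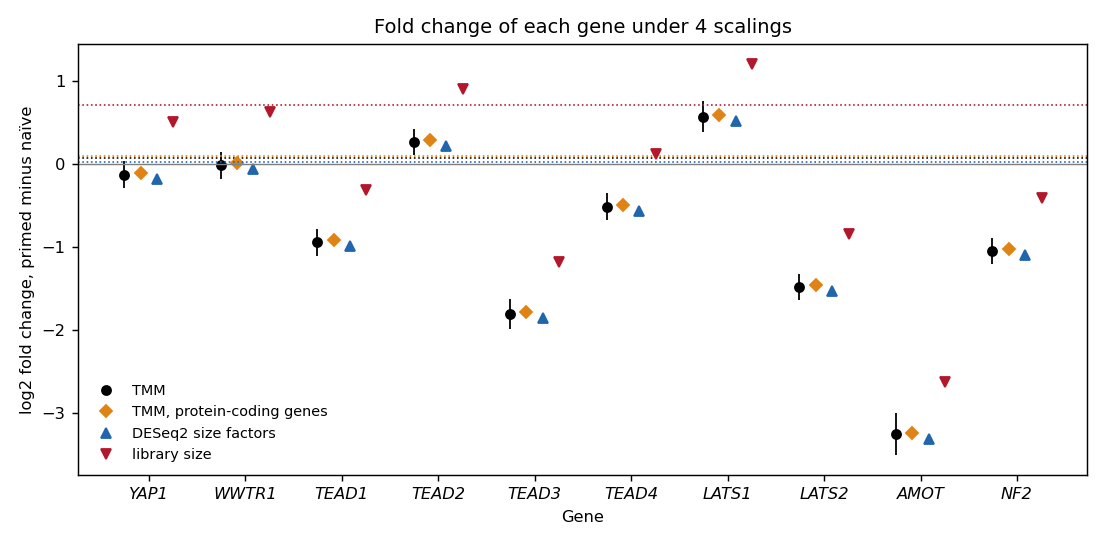
log2 fold change, primed minus naïve, of the 10 genes under 4 scalings of the libraries, with the standard error (bars) for TMM. Dotted lines in the colour of each scaling mark the median of all genes tested, which is 0.08 with TMM and 0.72 with library size, and TEAD4 goes from -0.51 with TMM to 0.13 with library size.

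Upstream of LATS, the kinase cassette that activates it moved in both directions. Of 7 genes, 2 were higher, 2 were lower and 3 did not pass the test, with a median log2 fold change of -0.05. Counts in this list and in those below stand beside 37.4% higher and 32.6% lower of all genes with TMM. With library size these shares were 56.2% and 16.3%. SAV1, the scaffold that links the MST kinases to LATS, had 43 and 63 naïve and 269 and 286 primed counts and was higher in primed hESCs (2.08 ± 0.22, SE, n = 2 per state, adjusted p = 2.0e-11 in edgeR). The LATS-related kinase STK38L was also higher, at 0.71, while STK38 was lower at -0.95 and MOB1A, a LATS coactivator, was lower at -0.51. The MST2 kinase STK3 (-0.31) and MOB1B (-0.05) did not pass. A transcript of another gene, DCK, inside MOB1B had counts equal to 30% of those of MOB1B. With library size in place of TMM, 4 of the 7 were higher and none was lower, MOB1A turning to 0.13.

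Kinases that act beside the MST kinases on LATS gave 4 higher, 2 lower and 5 not called of 11, with a median of -0.03. TNIK had 5 and 11 naïve and 378 and 460 primed counts, a log2 fold change of 5.38 ± 0.29 (SE, n = 2 per state, adjusted p = 8.5e-21 in edgeR). STK25 was higher at 0.98 and MINK1 lower at -0.47, while MAP4K4 (-0.03) and MAP4K3 (-0.06) did not pass. TAOK3 was called lower at -0.68, but a pseudogene inside it, RPS2P5, had counts equal to 99.3% of those of TAOK3, so its value describes the pseudogene's stretch. With library size, 8 of the 11 kinases were higher and none was lower, MINK1 turning to 0.17, where 56.2% of all genes were higher and 16.3% lower.

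Junction, polarity and cadherin genes, which feed cell contact into the pathway, were called in both directions. Of the 22 tested of 24, 11 were higher, 9 were lower and 2 did not pass, with a median of 0.43. With library size 13 were higher and 5 lower, against 56.2% and 16.3% of all genes. Without primed rep1 the median was -0.31 over 16 tested, and without primed rep2 it was -0.30 over 16. Those medians are over a smaller set of genes. FAT3, FAT4, CRB1, CRB2, DCHS1 and DCHS2, each with a positive log2 fold change over all libraries, did not reach the count minimum there. FAT3, an atypical cadherin, had 5 and 9 naïve and 497 and 640 primed counts and was 66.3-fold higher in primed hESCs (adjusted p = 8.4e-23 in edgeR), and its paralog FAT1 rose from 2.25 and 3.05 CPM to 14.4 and 14.9 CPM. Of the most abundant genes of the list, PATJ was higher at 0.34, TJP1 lower at -0.44 and the phosphatase PTPN14 at 0.00. Another gene inside PTPN14, ENSG00000213036, had counts equal to 41.7% of those of PTPN14. A pseudogene inside TJP1, HMGN2P5, had counts equal to 73.9% of those of TJP1, and TJP1 turned to 0.14 when it was counted on a transcript free of other genes and to 0.20 with library size.

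Of 14 genes for proteins that hold MST or LATS back or link RAS signals to MST (STRIPAK, LIM-domain and RASSF proteins), 9 were lower in primed hESCs, 1 was higher and 4 did not pass, with a median of -0.53. Over all genes 32.6% were lower and 37.4% higher. RASSF1 was lower at -1.24, from 9.44 and 7.52 CPM to 3.63 and 3.55 CPM, and the STRIPAK scaffold STRN at -0.72. The PP2A subunits PPP2R1A and PPP2CA were lower at -0.37 and -0.55, and STRN3, at -0.32, did not pass. The LIM protein AJUBA, which binds LATS, was higher at 0.95, from 3.38 and 2.74 CPM to 6.11 and 5.70 CPM. With library size 2 of the 14 were lower and 3 higher, PPP2R1A turning to 0.27 and PPP2CA to 0.083, and without primed rep2 3 were lower, without primed rep1 4.

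Of the 14-3-3, casein kinase and F-box genes that hold or degrade phosphorylated YAP1, 5 of 11 were lower, 1 was higher and 5 did not pass, with a median of -0.15. Over all genes 32.6% were lower and 37.4% higher. SFN, the epithelial 14-3-3 protein, had 146 and 168 naïve and 16 and 38 primed counts and was lower at -2.84 ± 0.28 (SE, n = 2 per state, adjusted p = 2.9e-12 in edgeR). CSNK1D, a casein kinase of the degradation step, was lower at -1.67, YWHAZ at -1.20 and YWHAE at -0.55, while YWHAB, at -0.03, did not pass. FBXW11, a subunit of the ubiquitin ligase, was higher at 0.42, a call that was lost with DESeq2 (adjusted p = 0.051). With library size 6 of the 11 were higher and 3 lower, YWHAE turning to 0.091. Of the genes named in these lists, MOB1A, MINK1, TAOK3, TJP1, PATJ, AMOTL1, PPP2R1A, PPP2CA, YWHAE and FBXW11 lost their calls when at least 1 library was left out.

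**Figure D5:**
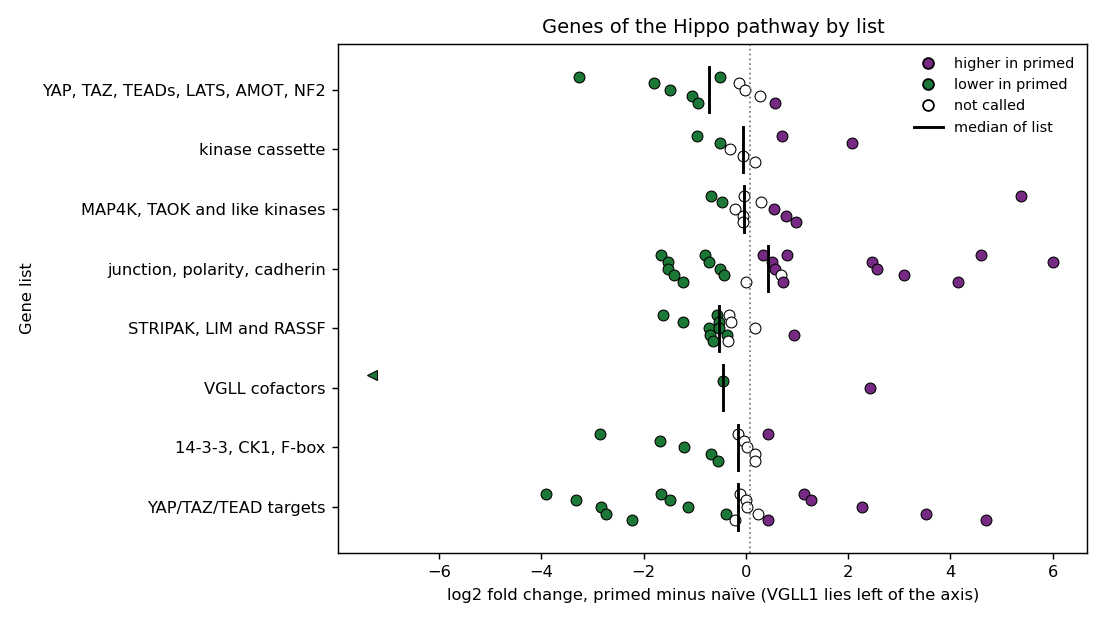
log2 fold change, primed minus naïve, of each tested gene in 8 lists of the Hippo pathway, 1 point per gene, with the list median as a vertical bar and the median of all genes (0.08) as a dotted line. Filled points passed the test in either direction and open points did not. The first list has a median of -0.72, and VGLL1, with no primed count, is drawn at the left edge.

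Of the VGLL cofactors, which bind TEADs at the surface that YAP1 and TAZ use, 1 was higher and 2 were lower of 3 tested. VGLL1, a TEAD partner of the trophoblast, had 402 and 426 naïve counts and none in either primed library. Against a limit of 3 counts per library its level in primed hESCs was at least 170.9-fold lower (adjusted p = 2.3e-24 in edgeR). VGLL1 is also on the list of trophoblast markers, whose sum fell from 2219 and 2546 to 5.77 and 5.02 CPM. VGLL3 was higher, with 6 and 9 naïve and 46 and 55 primed counts (log2 fold change 2.43 ± 0.40, SE, n = 2 per state). VGLL4, a repressor of YAP1 and TEAD, had 374 and 473 naïve and 338 and 425 primed counts and was lower at -0.46 ± 0.16 (SE, n = 2 per state, adjusted p = 0.012 in edgeR). It turned to 0.18 with library size, and its call was lost without naïve rep2, primed rep1 or primed rep2 (adjusted p from 0.062 to 0.484 in edgeR). VGLL2 had no count in any library.

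Genes known as targets of YAP1, TAZ and TEAD in other cells did not move one way. Of 22 listed targets 20 were tested, of which 6 were higher, 9 were lower and 5 did not pass, with a median of -0.16. Over all genes 37.4% were higher and 32.6% lower. CCN2 (CTGF), a standard readout of YAP1 activity, had 36 and 75 naïve and 326 and 336 primed counts, a log2 fold change of 2.28 ± 0.22 (SE, n = 2 per state, adjusted p = 3.4e-12 in edgeR). CCN1 (CYR61), its relative, had 120 and 158 naïve and 241 and 220 primed counts (0.43 ± 0.19, SE, n = 2 per state, adjusted p = 0.044 in edgeR), a call that was lost with DESeq2 (adjusted p = 0.173) and without naïve rep1 (adjusted p = 0.360 in edgeR), naïve rep2 (0.065) or primed rep1 (0.074). ANKRD1, the third common readout, had 38 and 49 naïve and 42 and 58 primed counts, and its states overlapped at a log2 fold change of -0.11 and an adjusted p of 0.755 in edgeR.

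Among the other targets, the receptor tyrosine kinase AXL had 8 and 9 naïve and 272 and 279 primed counts (4.69 ± 0.29, SE, n = 2 per state, adjusted p = 2.8e-18 in edgeR). RBMS3, an RNA-binding protein, was higher at 3.52, though the antisense gene RBMS3-AS3 inside it had counts equal to 27.5% of its own. MYOF, a membrane repair protein, had 1173 and 1369 naïve and 97 and 113 primed counts and was lower at -3.90 ± 0.18 (SE, n = 2 per state, adjusted p = 2.3e-23 in edgeR). GADD45A, a stress response gene, was lower at -3.33, from 31.7 and 30.6 CPM to 3.16 and 3.03 CPM. LATS2 and AMOTL2 are at once regulators and targets and were lower as given above, while PTPN14 did not pass. With library size in place of TMM, 8 targets were higher and 8 were lower.

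The promoters of the targets were searched for the core TEAD motif GGAATG or its reverse complement CATTCC in the 250 bases before to 50 bases after each RefSeq start (GRCh38.p14). Of 18 target promoters, 9 held it, or 50.0%, against 4928 of all 35116 promoters and 2 of 12 promoters of the 10 genes (YAP1 and LATS2). The target list was drawn from genes known for TEAD binding, so the share describes the list. Of the 9 targets with the motif, 3 were higher (CCN2, AXL and TGFB2), 3 were lower (AMOTL2, LATS2 and NUAK2), 2 did not pass (ANKRD1 and PTPN14) and FOXF2 was not tested. TGFB2 had 10 and 9 naïve and 27 and 30 primed counts, and its call was lost with DESeq2 (adjusted p = 0.109). Of the 7 targets with a promoter in the table and no motif, 1 was higher, 3 were lower, 2 did not pass and 1 was not tested.

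The promoters of CCN2 and NUAK2 are shown because both carry the motif more than once and differed in opposite directions, NUAK2, a kinase, being chosen after its values were seen. NUAK2 had 395 and 498 naïve and 119 and 116 primed counts, a log2 fold change of -2.23 ± 0.18 (SE, n = 2 per state, adjusted p = 1.3e-14 in edgeR). The sequences are the 250 bases before the RefSeq start on the coding strand (minus), chr6:131951373-131951622 for CCN2 and chr1:205321746-205321995 for NUAK2, with the motif in capitals. Between the end of the motif and the start lie 163, 98 and 89 bases for CCN2 and 191 and 12 bases for NUAK2.
CCN2 promoter: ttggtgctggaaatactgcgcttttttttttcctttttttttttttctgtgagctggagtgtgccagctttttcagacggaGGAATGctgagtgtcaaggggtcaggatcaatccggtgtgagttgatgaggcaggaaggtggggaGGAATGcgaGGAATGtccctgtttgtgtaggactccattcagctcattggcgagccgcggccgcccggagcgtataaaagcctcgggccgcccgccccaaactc
NUAK2 promoter: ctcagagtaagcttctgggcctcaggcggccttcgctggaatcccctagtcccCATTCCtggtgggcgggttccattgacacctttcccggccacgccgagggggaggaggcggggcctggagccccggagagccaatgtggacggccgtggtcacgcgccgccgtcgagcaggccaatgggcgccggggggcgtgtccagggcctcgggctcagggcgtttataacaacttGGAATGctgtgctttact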

How the data were processed

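Total RNA of naïve and primed hESCs was sequenced as Nanopore cDNA, 2 libraries per state. The authors aligned reads to GRCh38 with minimap2 and counted alignments per Ensembl transcript with featureCounts 2.0.0, per the file headers with long-read, multi-overlap and multi-mapping options over whole spans. Replicates were not pooled. The deposited values are raw counts. An alignment therefore counts for overlapping genes, and a read that aligns at several places counts at each.

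Transcripts were joined by identifier to GENCODE release 44. Of 244825 transcripts, 2283 (1.0% of the counts) had no match and were not used. The gene count was that of the transcript with the largest mean count. Genes that reached 10 counts in 2 or more libraries were tested with edgeR 4.0.16 (R 4.3.3), TMM and a quasi-likelihood fit on state, two-sided, with Benjamini-Hochberg adjustment. Standard errors were taken from the fold change and the F statistic. Isoform usage was tested with diffSpliceDGE with a call at adjusted p under 0.05 plus a dIF past 0.1, dIF being the primed minus the naïve share of the summed counts per exonic length of the gene. DESeq2 1.42.0 was an alternative. The others were library size, TMM over protein-coding genes, other count filters, other choices of transcript, the replicate number as a block and each library left out. Scripts were tested on simulated counts. Spans were overlapped with bedtools 2.31.1.

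The members and lists were chosen with earlier results of these data known. Named were the 10 genes, VGLL1, CCN1, CCN2, ANKRD1, AMOTL2 and, from each list, the 3 genes with the largest mean CPM and up to 2 called genes with the largest change in each direction at a mean count of at least 50. A gene named by this rule is not reported here. Replicates were distinct libraries, with a chi-square per degree of freedom of 8.74 (naïve) and 5.53 (primed). Promoters came from RefSeq and had entries for 8 of the 10 genes. Marker lists for primitive endoderm and neuroectoderm gave 1 higher and 1 lower of 3 tested and 3 higher of 3. Of 5 markers shared by both states, 3 were higher and 1 was lower.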

Additional observations from a re-analysis of the deposited data

How the results depend on the processing

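Of the 10 genes, 6 were called lower, and 4 to 7 under the alternatives, with 4 under library size and under a log2 fold change beyond 1. The number called higher was 1. It was 2 at a minimum of 50 counts, 4 with library size, 2 on spans free of other genes, 0 for counts summed over transcripts, 0 for a log2 fold change beyond 1, and 0 to 1 when each library was left out. Without primed rep2, and on the densest span, the gene called higher was TEAD2, not LATS1. AMOT, TEAD3, LATS2 and NF2 kept their direction and call under all alternatives run. YAP1 turned to 0.51 with library size, 0.58 on the densest span, 0.43 on the span free of other genes and 0.21 without primed rep1. WWTR1 turned to 0.63 with library size, 0.011 with TMM over protein-coding genes, 0.089 at a minimum of 50 counts, and 0.24 and 0.06 without primed rep1 and primed rep2. With each library left out in turn, YAP1 lay between -0.30 and 0.21 and WWTR1 between -0.083 and 0.24. TEAD4 turned to 0.13 with library size. The densest span was chosen after seeing the data. For the choice of span and library size the alternative itself changes what is counted or divided by, and otherwise the cause was not tested.

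Over all genes, TMM gave 10328 higher and 9009 lower in primed hESCs, library size 15525 and 4512, and DESeq2 8033 and 8181. With the replicate number as a replicate block, 10470 and 9219 genes were called, and 6 lower and 1 higher of the 10 genes. Deviations of same-numbered replicates correlated at 0.059 across genes, and nothing in the labels says that the numbers pair libraries. For isoform usage, 888 isoforms were called, 6809 without the dIF threshold and 374 to 462 with a library left out. Of the 79 isoforms of the 10 genes 0 were called, and 4 without the dIF threshold. With a library left out, the lone library of a state is assumed to vary like the pair of the other state. Genes that had counts only in that state were then not tested, VGLL1 among them without either naïve library. For YAP1, WWTR1 and TEAD2, the 95% intervals hold only for the transcript taken for the gene and for TMM. Other choices on the same libraries gave values outside them. WWTR1 was at -0.77 on the span free of other genes, -1.47 on the densest span and 0.63 with library size. YAP1 was at 0.43, 0.58 and 0.51 in the same order, and TEAD2 was at 0.92 with library size.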
